A study of Mus musculus with 23 samples.

Results

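Replication-dependent histone genes were followed through mouse plasma cells and myeloma. The genes were chosen by symbol alone, as every row of the deposited tables whose older mouse name places it in the Hist1, Hist2, Hist3 or Hist4 cluster. Of 24063 gene symbols, 68 carried such a name, and 63 of these had 10 or more counts summed over the 23 libraries. The 63 comprised 6 linker histone H1 genes, 16 H2A, 16 H2B, 12 H3 and 13 H4 genes. By cluster, 49 belonged to Hist1 on chromosome 13, 10 to Hist2 on chromosome 3, 3 to Hist3 on chromosome 11 and 1 to Hist4 on chromosome 6. The other 5 names (Hist1h2ao, Hist1h2ap, Hist1h2ba, Hist1h2bq and Hist1h2br) held 2 to 8 counts each and were not followed.

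RNA came from sorted CD138+B220- cells. The 4 VQ lines (VQ-D5, VQ-D2, VQ-D1 and VQ-D4) carry the Vκ*MYC transgene, a MYC gene under the control of a kappa light chain variable region, together with 1 NrasLSL Q61R allele and the IgG1-Cre transgene that activates it in cells switching to IgG1. The fifth line, t-VK12653, has Vκ*MYC as its only transgene. Each line is named for its donor cells, which were transplanted into recipient mice, and has 4 libraries. By the names of the deposited tables, these come from 2 recipients per line. VQ-D1 and t-VK12653 were sampled in bone marrow and spleen, VQ-D2 in spleen and lymph node, VQ-D5 in bone marrow and lymph node, and VQ-D4 once each in bone marrow, liver, spleen and lymph node. The 3 control libraries are bone marrow of mice with IgG1-Cre alone, so all groups except t-VK12653 carry that Cre. The labels call the sorted cells of every group myeloma cells, controls included. Controls are named control plasma cells here. The labels used here give no ages.

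Total counts ran from 2685579 to 10047314 per library, and 56 to 63 members had at least 1 read in a library. Summed defining plasma cell markers lay between 3140 and 7414 CPM in tumour libraries, against 4779 to 7633 CPM in controls. Controls also held more RNA of other cells. Summed neutrophil markers were at 4.32 to 1169 CPM in tumour libraries and 3151 to 8724 CPM in controls, and defining B cell markers were at 65.3 to 382 and 839 to 1165 CPM. Myc averaged 591.2 to 6532 CPM across the tumour lines, against 43.0 CPM in controls, and Nras 42.3 to 124 CPM, against 32.3 CPM. CPM are counts scaled to library size with trimmed mean of M values (TMM) factors, and do not correct for gene length.

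A cell that copies its DNA must also make histones to package it. The core histones H2A, H2B, H3 and H4 form the spool around which DNA is wound, and H1 binds the linker DNA between spools. Most of this supply comes from clustered, intronless genes that are transcribed in S phase under NPAT. Their RNA ends in a stem-loop instead of a poly(A) tail. The stem-loop binding protein SLBP and the U7 particle, which contains LSM11 and ZFP473, act on that end. When replication stops the RNA is degraded, so resting cells hold little of it. Plasma cells are largely non-dividing antibody producers, and myeloma is their malignant, dividing counterpart. Since the libraries were made from total RNA, tailless histone RNA could be counted.

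The stem-loop is the shared mark of the class, and its letters were read from the GENCODE M21 transcripts on GRCm38. A pattern of 16 letters (GG, 2 free letters, CTT, 1 free, T, 1 free, AG, 2 free and CC), searched on the sense strand, occurred in transcripts of 46 of the 68 genes. Among 21877 protein-coding gene names, 136 (0.622%) had them. The form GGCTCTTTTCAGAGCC was found in 26 members and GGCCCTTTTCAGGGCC in 7. The members below are among those that differ most between groups or are most abundant. Capitals mark the stem-loop, with up to 5 bases on either side.
Hist1h1c: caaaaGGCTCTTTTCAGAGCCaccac
Hist1h1e: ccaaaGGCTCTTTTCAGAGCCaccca
Hist1h1t: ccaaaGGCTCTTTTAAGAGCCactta
Hist1h2ag: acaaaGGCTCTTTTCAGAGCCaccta
Hist3h2a: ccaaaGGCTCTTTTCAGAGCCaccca
Hist3h2ba: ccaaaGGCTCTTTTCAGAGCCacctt
Hist1h4i: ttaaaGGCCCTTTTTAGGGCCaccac
Hist1h4m: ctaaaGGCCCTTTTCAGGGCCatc
Hist4h4: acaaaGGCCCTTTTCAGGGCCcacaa
In Hist1h4m and Hist1h2ag the annotated transcript ended 3 and 23 bases after the stem-loop. In Hist1h1c, Hist1h1e, Hist3h2a and Hist4h4 it ran on for 840, 1153, 1643 and 2445 bases. The letters were not found in the annotated transcripts of Hist1h1a, Hist2h2bb and Hist2h2be. Only annotated transcripts were searched, so a stem-loop beyond an annotated end would be missed. Both these absences and the 46 of 68 thus describe the annotation and not the genes.

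Promoters of the classes differed in the letters they held. In RefSeq's GRCm38.p6 table, 61 members had 62 promoter entries, and the 250 bases before the start were searched on both strands against 32851 promoters. CCAAT, the box bound by NF-Y, was in 51 of 62 member promoters (82.3%) and in 33.8% of all promoters. The octamer ATTTGCAT, bound by OCT1, was in 7 of 17 H2A and 7 of 17 H2B promoters, against 1.60% of all. None of the H1, H3 or H4 promoters held it. Some H2A and H2B windows overlap, such as those of Hist1h2ae and Hist1h2bg, so these H2A and H2B counts are not separate. AAACACA, known as the H1 box, was in 5 of 6 H1 promoters (6.25% of all). GGTCCG was in 9 of 12 H4 promoters (6.72% of all). The E-box CACGTG that MYC can bind was in 0 of 62 member promoters and in 6.02% of all promoters. The TATA letters TATAAA were in 46.8% of member promoters and in 12.4% of all. The last 150 bases of 5 of these windows are shown, for members picked from those whose RNA differed strongly between groups. They are written 5′ to 3′ on the gene's strand, with matches on either strand in capitals.
Hist3h2a (chr11:58954535-58954684, plus strand): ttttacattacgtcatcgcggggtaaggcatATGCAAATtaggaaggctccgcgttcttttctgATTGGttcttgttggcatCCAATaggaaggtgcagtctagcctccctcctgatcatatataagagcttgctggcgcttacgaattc
Hist2h2bb (chr3:96269550-96269699, plus strand): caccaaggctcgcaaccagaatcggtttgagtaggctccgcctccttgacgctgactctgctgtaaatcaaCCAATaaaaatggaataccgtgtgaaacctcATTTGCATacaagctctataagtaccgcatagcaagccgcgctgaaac
Hist1h1a (chr13:23763518-23763667, plus strand): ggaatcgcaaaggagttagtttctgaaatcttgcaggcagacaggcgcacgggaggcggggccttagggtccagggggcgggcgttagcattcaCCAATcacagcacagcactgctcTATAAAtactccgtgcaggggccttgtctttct
Hist1h4m (chr13:21811596-21811745, plus strand): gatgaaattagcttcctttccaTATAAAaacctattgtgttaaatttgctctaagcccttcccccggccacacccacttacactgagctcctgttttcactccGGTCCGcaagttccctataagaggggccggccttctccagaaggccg
Hist4h4 (chr6:136804432-136804581, minus strand): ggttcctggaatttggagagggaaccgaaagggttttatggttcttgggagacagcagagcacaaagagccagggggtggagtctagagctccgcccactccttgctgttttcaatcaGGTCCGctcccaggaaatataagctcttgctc
A match describes these letters only. Hist3h2a and Hist2h2bb held both the CCAAT box and the octamer, while the 2 H4 promoters shown held GGTCCG. The promoter of Hist3h2ba, not shown, held CCAAT and TATAAA but not the octamer.

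Levels were first compared between genes per unit of length, in the TPM deposited by the authors. The linker genes Hist1h1e and Hist1h1c averaged 2047 and 1919 TPM over the 23 libraries, and the H2B gene Hist2h2bb averaged 2015 TPM. The leading H4, H2A and H3 genes were Hist1h4d (1143 TPM), Hist1h2ab (685 TPM) and Hist1h3e (379 TPM). Each class was uneven within itself: the median member stood at 162 TPM among H2A, 101 TPM among H2B, 62.0 TPM among H3, 139 TPM among H4 and 838 TPM among H1 genes. The next in rank were Hist1h1d (847 TPM), Hist2h4 (760 TPM), Hist1h2ak (632 TPM), Hist3h2a (619 TPM), Hist1h4c (507 TPM), Hist1h2bg (290.04 TPM), Hist1h2bj (243 TPM), Hist2h3b (175 TPM) and Hist1h3c (117 TPM).

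Copies of near-identical sequence limit what a single gene's count means. Of the 63 members, 5 shared over 90% of their 50-base words with other transcripts, and the sources used here do not give how reads with several matches were treated. Hist1h4m shared 89.8% of its words with Hist1h4n, and Hist2h2bb shared 53.6% with the predicted gene Gm42743. Hist3h2a shared 31.5% with a transcript of Trim17, and Hist1h1e shared 23.8% with Hist1h2be, whose annotated span overlaps it. Hist2h2aa1 and Hist2h2aa2 had the same count in every library (41 each in all), and Hist2h3c1 and Hist2h3c2 had 84 and 82 counts. Both pairs are among the 63, so the counts within a pair are not separate evidence. Hist1h1a, Hist1h1b, Hist1h1t and Hist2h2be shared none.

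The histone share of all counts was 0.378%, 0.496%, 0.433% and 0.434% in VQ-D1, 0.626%, 0.762%, 0.519% and 0.663% in VQ-D2, and 0.717%, 0.825%, 0.649% and 0.848% in VQ-D5. It was 0.245%, 0.324%, 0.430% and 0.418% in VQ-D4, and 0.178%, 0.168%, 0.244% and 0.215% in t-VK12653. The 3 controls were at 0.211%, 0.470% and 0.221%. Every VQ-D2 and VQ-D5 library lay above all controls, and the VQ-D1, VQ-D4 and t-VK12653 libraries overlapped the control range. Control replicate 2 stood apart with more than the other controls and also had the highest neutrophil marker sum (8724 CPM) and Mki67 (1334 CPM, with 777 and 747 CPM in the other controls). In bulk RNA, fewer dividing cells and less histone RNA per dividing cell cannot be told apart.

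**Figure D1:**
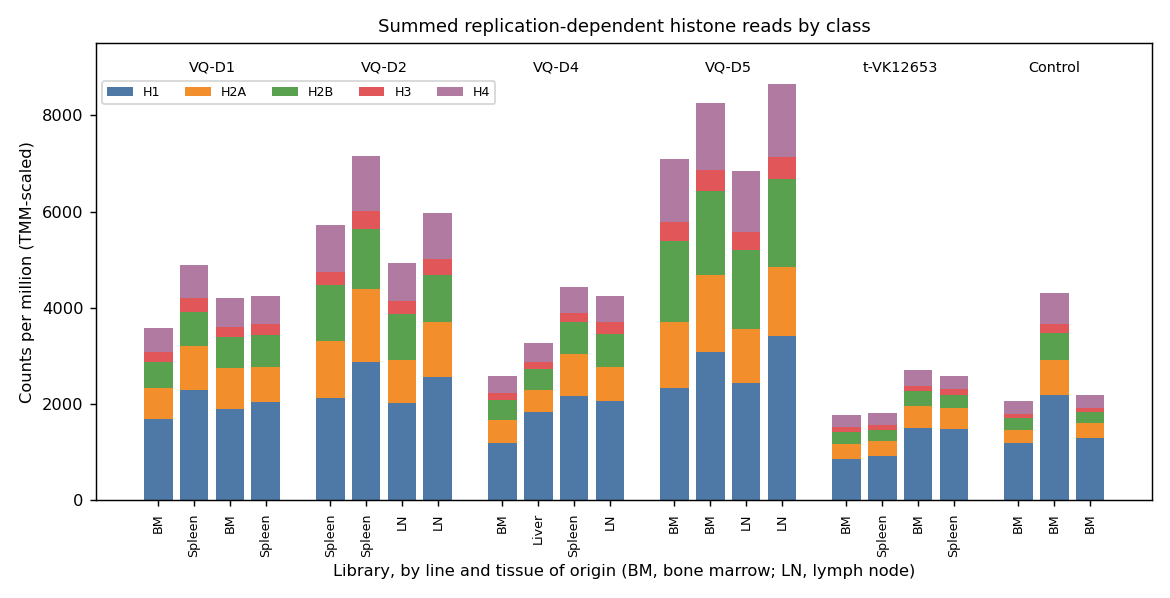
Summed CPM of the 63 histone members in each library (bars, stacked by class), ordered by line with controls at the right and labelled by tissue of origin. The 4 VQ-D5 libraries were the tallest as a group, at 6834 to 8643 CPM. The t-VK12653 libraries were the lowest on average, at 1767 to 2712 CPM, and overlapped controls (2064, 4300 and 2196 CPM).

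The balance between linker and core histones differed as well. H1 genes supplied 36.4 ± 2.80% of histone counts in VQ-D5, 40.4 ± 2.46% in VQ-D2, 46.9 ± 1.22% in VQ-D1, 49.8 ± 4.35% in VQ-D4 and 53.1 ± 3.69% in t-VK12653 (SD, n = 4 libraries each). They supplied 55.9 ± 4.51% in controls (SD, n = 3). Every VQ-D1, VQ-D2 and VQ-D5 library lay below every control. H2B genes moved the other way, with 22.5 ± 1.67% of histone counts in VQ-D5, against 11.5 ± 1.33% in controls. These shares are compositional and depend on the few most abundant genes of each class.

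Which members differ between VQ myeloma and control plasma cells was asked with the donor line as the unit, by summing the 4 libraries of each line and setting 4 sums against 3 controls. Of 62 members tested, 10 rose and 0 fell (edgeR quasi-likelihood test, Benjamini-Hochberg adjusted p under 0.05). Among all genes tested, 13.7% rose and 9.27% fell. The share of members called higher was thus near that of all genes, while the median log2 fold change of members was 1.34, against 0.19 for all genes. All 62 estimates were positive, and 35 had an unadjusted p under 0.05. DESeq2 called 20 members higher, and with RLE scaling, which lowers the median of all genes to 0.07, edgeR called 6. Without control replicate 1 or without control replicate 3 the count was 2, without VQ-D2 5, without VQ-D5 4, and without VQ-D4 21. With bone marrow libraries alone 3 members were called.

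The 10 called genes were the H2A genes Hist1h2ac, Hist1h2ag and Hist1h2ah, the H2B genes Hist1h2bc, Hist1h2bg and Hist1h2bj, the H3 genes Hist1h3e and Hist1h3i, and the H4 genes Hist1h4b and Hist1h4i. Hist1h2ag had 14.99 to 44.9 CPM in the 16 VQ libraries, against 5.18, 9.19 and 6.82 CPM in controls. No VQ library overlapped a control. Its log2 fold change was 2.09 ± 0.31 (SE, adjusted p = 0.00614), on 78.9% shared sequence. Hist1h2ac, another H2A gene, had 49.4 to 97.8 CPM in VQ libraries and 17.5, 30.6 and 20.2 CPM in controls, and the log2 fold change was 1.84 ± 0.25 (SE) with an adjusted p of 0.00534. Over individual libraries, 5 members (these 2 with Hist1h2bc, Hist1h3e and Hist1h3i) lay above every control in all 16 VQ libraries, and 0 lay below. Among 16934 gene symbols with 10 or more counts, 9.02% lay above and 11.5% below, so the members' share above was near that of all genes.

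Hist1h4i, an H4 gene, had 25.1, 19.3, 21.1 and 22.0 CPM in VQ-D5, 15.6, 10.3, 6.197 and 9.69 CPM in VQ-D2, 12.8, 14.8, 19.6 and 14.8 CPM in VQ-D1 and 20.1, 21.015, 26.9 and 30.3 CPM in VQ-D4. Controls had 4.53, 8.85 and 3.41 CPM. Only a VQ-D2 library fell within the control range, and the log2 fold change was 1.82 ± 0.45 (SE, adjusted p = 0.0267). Hist1h2ah reached 2.09 ± 0.56 (adjusted p = 0.0343), on 90.7% shared sequence. No H1 gene was among the called genes: of 6 tested, 1 had an unadjusted p under 0.05, and Hist1h1c, the most abundant by count after Hist1h1e, had a log2 fold change of 0.31 ± 0.22 (adjusted p = 0.345).

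A list of 3 members known to escape the tailless rule in differentiated cells held Hist1h1c, Hist1h2bc and Hist2h2be. The list may be incomplete, and tails were not measured in any member. These 3 were described apart because their RNA can also be polyadenylated. Only Hist1h2bc passed the test, with 64.1 to 125 CPM in VQ libraries against 30.1, 52.8 and 28.9 CPM in controls (log2 fold change 1.28 ± 0.27, adjusted p = 0.0169). Their summed level was 274 to 1299.6 CPM in tumour libraries and 534 to 739 CPM in controls. Of the 3 germline members, Hist1h2aa and Hist1h2ba held 11 and 2 counts in all 23 libraries, and Hist1h1t is described with VQ-D1.

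Each line was then set against controls in 1 fit of all 23 libraries with terms for group and tissue, in which 58 members were tested. The p-values measure the spread between libraries of 1 donor and not between donors. VQ-D5 had 53 members higher and 0 lower (all genes 31.2% and 32.5%), with a median log2 fold change of 1.63. All 10 H3 and all 13 H4 genes tested rose in that line, with 12 of 13 H2A, 14 of 16 H2B and 4 of 6 H1 genes. Its highest log2 fold changes were those of Hist2h2bb (3.14 ± 0.30), the H2A genes Hist1h2ah (2.91 ± 0.42) and Hist1h2an (2.43 ± 0.45) and the H4 gene Hist2h4 (2.58 ± 0.32), with adjusted p from 1.11e-07 to 0.000167. VQ-D2 had 41 higher and 1 lower (all genes 29.6% and 27.8%), among them 12 of 13 H4 genes and 1 of 6 H1 genes. Hist1h2ah (2.25 ± 0.46, adjusted p = 0.000506) and Hist2h2bb were among the highest, and Hist2h2be was the 1 lower (-1.64 ± 0.55, adjusted p = 0.0150). VQ-D2 has no bone marrow library, so its comparison rests on tissue terms estimated in other lines.

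**Figure D2:**
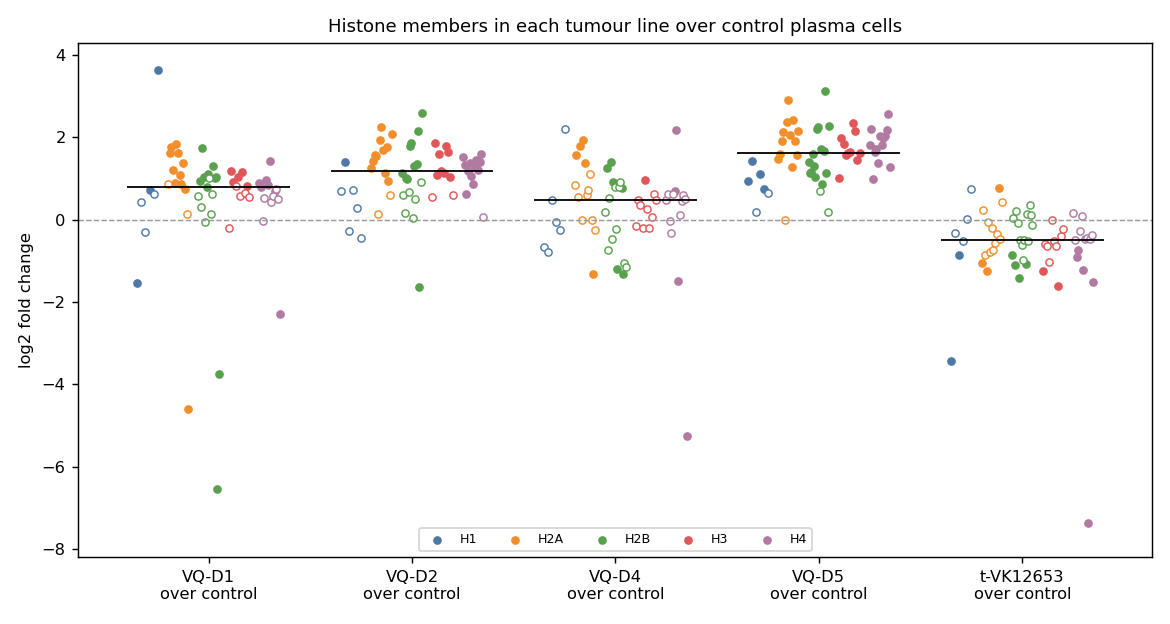
Log2 fold change of each tested histone member (points, coloured by class) in each tumour line over control plasma cells, with filled points for adjusted p under 0.05 and a bar at the median of members. The medians were 1.63 in VQ-D5, 1.19 in VQ-D2, 0.81 in VQ-D1, 0.47 in VQ-D4 and -0.50 in t-VK12653.

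VQ-D1 had 31 members higher and 5 lower (all genes 29.7% and 29.6%), and VQ-D4 had 11 higher and 5 lower (all genes 27.5% and 26.8%). In VQ-D4 the liver library was fitted exactly by its tissue term, so its estimate rests on 3 libraries. Without control replicate 2, VQ-D4 had 28 members higher and 4 lower. Without control replicate 1 VQ-D1 had 15 higher and 5 lower, and without control replicate 3 it had 14 and 5. The H2A and H2B genes Hist1h2ag, Hist1h2ad and Hist1h2bf led in VQ-D1 beside Hist1h1t (1.84 ± 0.30, 1.76 ± 0.32 and 1.74 ± 0.28). Hist1h4i (2.19 ± 0.34) and the H2A genes Hist1h2ag (1.94 ± 0.32), Hist1h2ae (1.78 ± 0.43) and Hist1h2ac (1.58 ± 0.33) led in VQ-D4, where Hist1h4j (-1.49 ± 0.39), Hist2h2ac (-1.33 ± 0.28) and Hist2h2be (-1.32 ± 0.54, adjusted p = 0.0440) fell. By library, 53 members in VQ-D5, 39 in VQ-D2, 20 in VQ-D1 and 9 in VQ-D4 lay above all controls in all 4 libraries. Among 16934 gene symbols with 10 or more counts, 26.5%, 26.5%, 25.2% and 20.9% did so in these lines. Below all controls in all 4 libraries lay 0 members in VQ-D5, 1 in VQ-D2, 4 in VQ-D1 and 4 in VQ-D4 (all such genes 29.4%, 28.2%, 25.9% and 23.4%). The members' share in VQ-D4 was thus under that of all genes in both directions.

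The t-VK12653 line had 1 member higher and 15 lower than in controls (all genes 28.8% and 28.1%). The share called lower was near that of all genes, while the median log2 fold change of the 58 members was -0.50, against 0.01 for all genes. In all 4 libraries, 0 members lay above and 10 below every control (all genes with 10 or more counts 22.8% and 24.3%). Its lower members included Hist1h4c, Hist1h4d, Hist1h2ab and Hist1h1c, each among the 3 highest of its class by TPM. The leading H1, H2B and H3 genes, Hist1h1e, Hist2h2bb and Hist1h3e, averaged 1356, 366 and 161 TPM in t-VK12653. Controls averaged 1529, 623 and 173 TPM for these genes. Hist1h1c had 239, 266, 428 and 469 CPM in t-VK12653, against 501, 684 and 541 CPM in controls. The groups did not overlap (log2 fold change -0.86 ± 0.25, adjusted p = 0.00626). The H2A gene Hist2h2ab alone rose (0.77 ± 0.28, adjusted p = 0.0213). Without control replicate 2 the counts were 3 higher and 6 lower, so the counts depended on that library.

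Adding the Nras allele to MYC was addressed by setting the mean of the 4 VQ lines against t-VK12653. There, 49 members were higher and 1 lower in VQ lines (all genes 29.6% and 31.6%), with a median log2 difference of 1.42. All 19 members of the lower-coordinate stretch of Hist1 and 26 of 29 in the upper stretch were higher. Beside Hist1h4m and Hist1h1a, the highest differences were those of Hist1h2ae (2.92 ± 0.34) and Hist1h4i (2.85 ± 0.28). The 1 lower member was Hist3h2ba (-1.73 ± 0.54, adjusted p = 0.00928). The MYC side is a single donor, so line and genotype cannot be told apart. Comparisons of the lines with controls and with t-VK12653 share libraries.

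Among the 5 tumour lines, 58 of 58 members tested differed (all genes 88.1%). VQ-D5 had the highest line average for 45 of the 63 members, VQ-D2 for 8, VQ-D4 for 5, VQ-D1 for 4 and t-VK12653 for 1. The lowest line average was in t-VK12653 for 47 members. In direct pairs, VQ-D4 had 0 members higher and 43 lower than VQ-D5 (all genes 29.1% and 29.6%), and VQ-D1 had 2 higher and 38 lower than VQ-D5 (28.8% and 29.7%). VQ-D2 had 0 higher and 14 lower than VQ-D5 (18.6% and 20%), including all 6 tested Hist2 genes, and 34 higher and 4 lower than VQ-D4 (29.4% and 27.6%). VQ-D1 had 4 higher and 20 lower than VQ-D2 (24.8% and 26.5%), or 3 and 11 without VQ-D2 replicate 2, and 17 higher and 4 lower than VQ-D4 (20.4% and 20.8%). The pairs share libraries.

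Hist2h2bb, the leading H2B gene (chr3:96269752-96270132, plus strand), reached the highest CPM of any member in any library, 1204 CPM. It had 1109, 1137, 1081 and 1204 CPM in VQ-D5, 673, 671, 529.8 and 533 CPM in VQ-D2, 226, 297, 268 and 276 CPM in VQ-D1, 158, 163, 239 and 276 CPM in VQ-D4, and 98.7, 80.0, 105 and 78.8 CPM in t-VK12653. Controls had 87.1, 211 and 80.8 CPM. The VQ-D5 libraries lay above all others, with a log2 fold change over control of 3.14 ± 0.30 (adjusted p = 1.11e-07). In VQ-D2 it was 2.16 ± 0.33 (adjusted p = 2.69e-05). Over the 4 line sums the fold change was 2.27 ± 0.72 and missed the threshold (adjusted p = 0.0586).

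Several members were nearly silent in a single line. The Hist3 cluster (Hist3h2a at chr11:58954685-58956830 on the plus strand, with the H2B gene Hist3h2ba and the pseudogene Hist3h2bb-ps just before it) was nearly silent in VQ-D1. Hist3h2a, whose H2A product carries the current name H2aw, had 5.17, 1.81, 3.09 and 2.09 CPM in VQ-D1. It had 222, 266, 248 and 349 CPM in VQ-D5, 251, 334, 243 and 315 CPM in VQ-D2, 48.8, 26.9, 119 and 11.8 CPM in VQ-D4 and 79.6, 55.4, 113 and 139 CPM in t-VK12653. Controls had 36.9, 114 and 43.3 CPM. Every VQ-D1 library lay below every other library.

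The log2 fold change of Hist3h2a in VQ-D1 was -4.61 ± 0.72 over control (adjusted p = 5.81e-05), -6.70 ± 0.69 over VQ-D2 (adjusted p = 1.02e-06) and -4.35 ± 0.68 over VQ-D4 (adjusted p = 0.00013). In VQ-D2 and VQ-D5 it was 2.09 ± 0.66 and 2.16 ± 0.59 over control (adjusted p = 0.0133 and 0.00487). Hist3h2ba had 1 read in the 4 VQ-D1 libraries together, against 33 reads in controls. The ratio of pooled CPM was 0.0108 (95% counting interval 0.000265 to 0.0643), and the adjusted p was 8.96e-05. Hist3h2bb-ps had 2 reads in VQ-D1 and 12 in controls, a ratio of 0.0592 (0.00644 to 0.266). Intervals cover counting error only.

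Of the neighbours of the Hist3 cluster, some were low in the same line and one was not. Rnf187, an E3 ubiquitin ligase gene 15769 bases from Hist3h2a, had 75.4, 80.8, 83.3 and 70.1 CPM in VQ-D1, against 195, 177 and 171 CPM in controls. The groups did not overlap, with a log2 fold change of -1.32 ± 0.26 (adjusted p = 0.000355). In the other tumour lines Rnf187 was above control in every library, at 208 to 891 CPM. Trim11, 21263 bases beyond Hist3h2a on the other side, had 20.3 ± 1.51 CPM in VQ-D1 (SD, n = 4) and 64.5 ± 6.70 CPM in controls (SD, n = 3), and it was lower than control in every tumour line. In VQ-D4, Rnf187 had 468, 244, 609 and 208 CPM in the same library order in which Hist3h2a had 48.8, 26.9, 119 and 11.8 CPM. The spleen library was highest and the lymph node library lowest for both. Trim17, whose annotated span overlaps Hist3h2a, had 0.941 ± 0.688 CPM in VQ-D1 (SD, n = 4) and 1.01 ± 0.0395 CPM in controls (SD, n = 3). Btnl10, beyond Rnf187, had at most 0.939 CPM in tumour libraries, against 0.324, 14.3 and 3.41 CPM in controls. In the same order, the controls had erythroid marker sums of 208.5, 1082 and 259 CPM. The part of other cells' RNA in the Btnl10 difference was not tested.

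**Figure D3:**
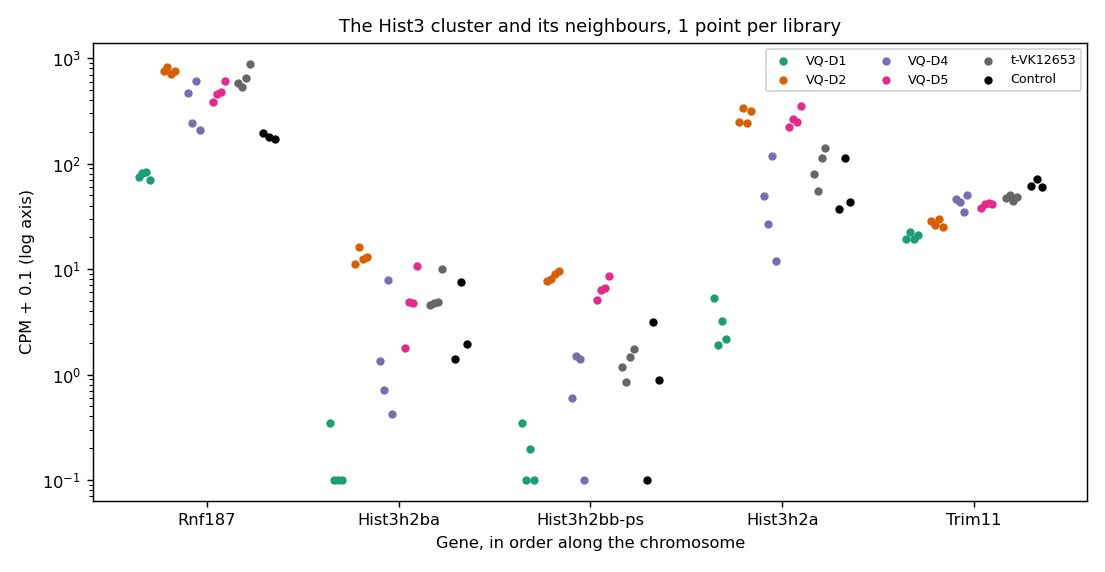
CPM + 0.1 on a log axis for the 3 Hist3 members and the neighbours Rnf187 and Trim11, in order along the chromosome, with 1 point per library and lines left of controls. Hist3h2a in VQ-D1 lay at 1.81 to 5.17 CPM, below all other libraries, and Rnf187 in VQ-D1 at 70.1 to 83.3 CPM.

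Hist4h4, the single H4 gene of the Hist4 locus (chr6:136801553-136804415, minus strand), was nearly silent in a different line. It had 0.377, 0.309, 0.648 and 0.958 CPM in VQ-D4, 3.45, 1.48, 6.95 and 5.29 CPM in VQ-D1, 49.3, 61.2, 53.0 and 64.6 CPM in VQ-D5, 20.9, 25.025, 23.2 and 23.7 CPM in VQ-D2 and 7.94, 6.95, 6.77 and 9.03 CPM in t-VK12653. Controls had 13.9, 41.2 and 15.7 CPM. VQ-D4 and VQ-D1 lay below all controls, and so did t-VK12653. The log2 fold change over control was -5.26 ± 0.61 in VQ-D4 (adjusted p = 6.70e-07), -2.29 ± 0.38 in VQ-D1 (adjusted p = 4.47e-05) and 1.28 ± 0.35 in VQ-D5 (adjusted p = 0.00367).

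The protein-coding neighbours of Hist4h4, 2 on either side, differed among themselves. H2afj, a replication-independent H2A variant gene 3829 bases away, had 56.6 ± 20.5 CPM in VQ-D4 (SD, n = 4), against 55.0 ± 6.46 CPM in controls (SD, n = 3), a log2 fold change of 0.07 ± 0.22 (adjusted p = 0.816). Wbp11, 9239 bases away, had 97.2 CPM in VQ-D4 and 103 CPM in controls on average (-0.12 ± 0.14, adjusted p = 0.505). With the median of all genes at 0.01 in this comparison, these 2 estimates stayed within their errors. On the other side, Plbd1, a phospholipase B-like gene 139625 bases away, had 1.76, 0.155, 0.324 and 0.319 CPM in VQ-D4, against 30.1, 85.1 and 26.2 CPM in controls. The groups did not overlap (-4.90 ± 0.63, adjusted p = 1.20e-06). Plbd1 fell in the other 4 lines as well, VQ-D5 and VQ-D2 included, where Hist4h4 was not silent. In the same order, the controls had neutrophil marker sums of 3151, 8724 and 3586 CPM. The part of other cells' RNA in the Plbd1 difference was not tested. Gucy2c, 19788 bases away, had no reads in VQ-D4 or in controls.

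Hist1h4m (chr13:21811746-21812147, plus strand), an H4 gene, was nearly silent in t-VK12653. It had 51.0, 58.2, 48.4 and 53.0 CPM in VQ-D5, 24.1, 40.4, 27.7 and 34.0 CPM in VQ-D2, 15.5, 23.5, 27.0 and 21.3 CPM in VQ-D1 and 14.97, 16.7, 24.6 and 17.6 CPM in VQ-D4, and 1 read in the 4 t-VK12653 libraries together. Controls had 10.7, 17.7 and 10.8 CPM. The ratio of pooled CPM of t-VK12653 to control was 0.00471 (95% counting interval 0.000118 to 0.0267, adjusted p = 1.06e-09), and that of VQ lines to t-VK12653 was 521 (93.4 to 20579, adjusted p = 8.41e-13). Hist1h4n, whose transcripts hold 89.8% of the Hist1h4m words, was present in t-VK12653 at 16.3 CPM on average, against 21.2 CPM in controls. Zkscan8 and Zfp184, the nearest protein-coding genes outside the histone family on either side, averaged 28.6 and 8.73 CPM in t-VK12653, against 35.5 and 2.69 CPM in controls.

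Hist1h1a (chr13:23763666-23764406, plus strand), an H1 gene known in mouse for its restriction to few tissues, was low in the same line. It had 12.7, 13.3, 14.6 and 16.4 CPM in t-VK12653, against 86.4, 228 and 71.9 CPM in controls. It had 252, 276, 245 and 316 CPM in VQ-D5, 272, 351, 176 and 300.1 CPM in VQ-D2, 46.3, 51.2, 44.2 and 69.3 CPM in VQ-D1 and 53.3, 57.8, 117 and 134 CPM in VQ-D4. The t-VK12653 libraries lay below all others, with a log2 fold change of -3.44 ± 0.41 over control (adjusted p = 3.22e-06), and VQ-D1 below all controls (-1.54 ± 0.37, adjusted p = 0.00209). VQ-D5 lay above all controls (0.93 ± 0.36, adjusted p = 0.0343).

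**Figure D4:**
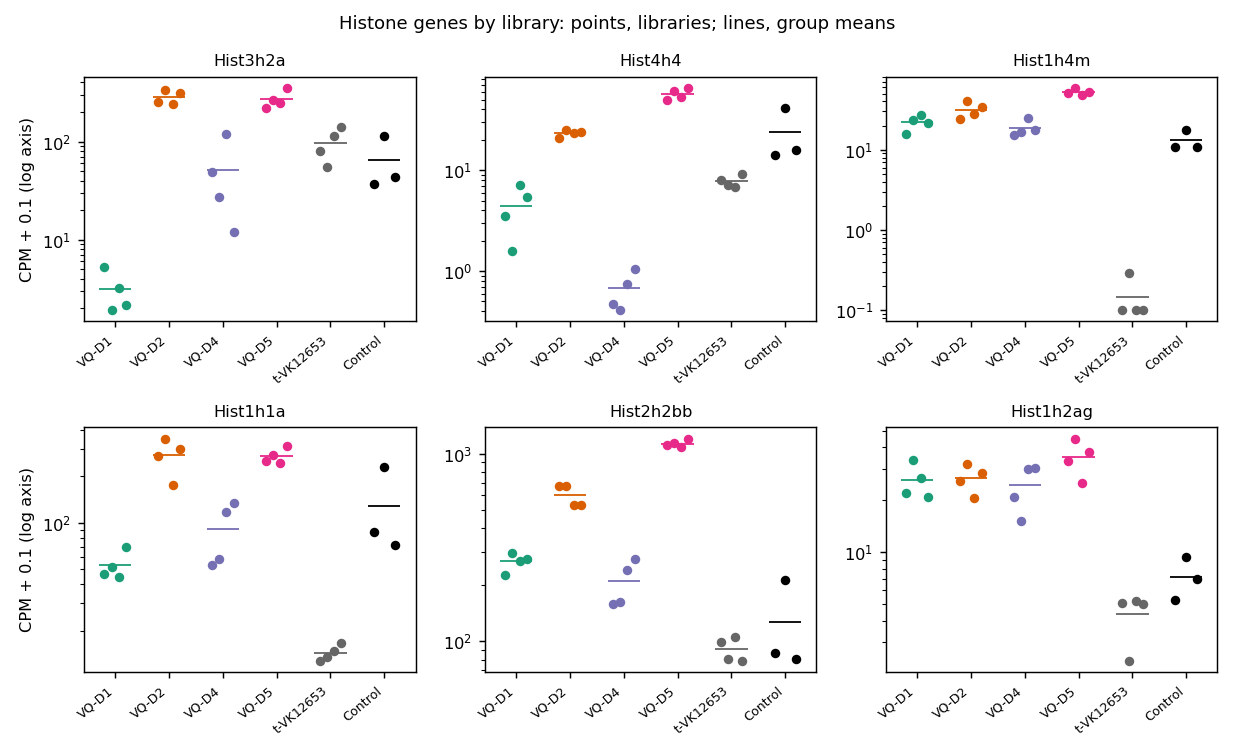
CPM + 0.1 on a log axis for 6 histone members, with 1 point per library and a bar at the group mean, lines at the left and controls at the right. Hist3h2a was lowest in VQ-D1, Hist4h4 in VQ-D4, and Hist1h4m and Hist1h1a in t-VK12653, where Hist1h4m had 1 read in all.

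Hist1h1t, the linker histone of the testis, was detected in VQ-D1 at 1.48, 3.29, 2.41 and 2.37 CPM, against 0.324, 0 and 0.262 CPM in controls, where it had 2 reads in all. The ratio of pooled CPM was 12.1 (95% counting interval 3.22 to 102), with an adjusted p of 0.00365. In VQ-D4 it had 1.38, 9.73, 0.324 and 1.60 CPM, the 9.73 CPM in liver. These values are far below the 485 to 589.9 CPM that Hist1h1c had in VQ-D1.

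Hist2h2be, an H2B gene that shares no 50-base words with other transcripts, split the VQ lines. It had 4.44, 3.62, 6.75 and 5.71 CPM in VQ-D1 and 3.11, 6.88, 6.67 and 5.59 CPM in VQ-D5, but 0.596, 1.01, 0.775 and 0.862 CPM in VQ-D2 and 1.38, 1.70, 0.648 and 0.639 CPM in VQ-D4. Controls had 2.91, 2.72 and 1.84 CPM. VQ-D1 and VQ-D5 lay above all controls, and VQ-D2 and VQ-D4 below. Reads were few, at 9, 8 and 7 in controls, 4, 7, 4 and 4 in VQ-D2 and 11, 11, 2 and 2 in VQ-D4. The nearest VQ-D4 and control libraries, at 1.70 and 1.84 CPM, had 11 and 7 reads. The log2 difference was 2.68 ± 0.44 in VQ-D1 over VQ-D2 (adjusted p = 2.60e-05) and -2.76 ± 0.43 in VQ-D2 over VQ-D5 (adjusted p = 2.79e-05). Hist1h4j and Hist1h2bm, an H4 and an H2B gene, were higher in VQ-D2 than in VQ-D4 by 2.77 ± 0.32 and 2.502 ± 0.24 (adjusted p = 2.04e-07 and 1.49e-08). Hist2h3c1 had 83 reads in VQ libraries and 0 in t-VK12653, at least 4.75-fold higher in VQ by a floor of 3 counts over the group, but all of its words occur in other transcripts.

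No member passed the test between tissues in the fit of 23 libraries, and some did under other settings. In spleen over bone marrow 0 of 58 members passed (edgeR quasi-likelihood test, all genes 0%), DESeq2 also called 0, 5 had an unadjusted p under 0.05 and the median log2 difference was 0.20. In lymph node over bone marrow 0 passed (edgeR, all genes 0.00777% in each direction; DESeq2 also 0), with 1 at an unadjusted p under 0.05. The spleen effect in VQ-D1 minus that in t-VK12653 was fitted in the libraries of these lines alone. It passed for 0 of 57 members (edgeR, all genes 0%), and DESeq2 also called 0. In edgeR, 7 had an unadjusted p under 0.05. With recipients as a block in tumour libraries alone, 1 member was higher in spleen. Without the filter on low counts, 7 members were higher in spleen and 1 was lower in lymph node.

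Genes that act with the histone genes were taken from lists of known roles. In VQ lines over control, 13.7% of all genes tested rose and 9.27% fell. Among DNA replication genes, 9 of 33 rose and 0 fell, with a median log2 fold change of 1.38, against 0.19 for all genes. Gins2 and Cdc45, both components of the replicative helicase, rose by 2.55 ± 0.69 and 2.22 ± 0.62 (adjusted p = 0.0360 and 0.0394). By line, 31 rose in VQ-D5, 30 in VQ-D2, 24 in VQ-D1, 8 in VQ-D4 and 15 in t-VK12653, while 6 fell in VQ-D4 and 2 in t-VK12653. Of all genes, 31.2%, 29.6%, 29.7%, 27.5% and 28.8% rose in these lines in that order, so the 8 of 33 in VQ-D4 were near the share of all genes. Of 20 mitosis genes, 11 rose and 0 fell in VQ lines (median 1.90), led by Cdc20, which switches on the anaphase-promoting complex (3.08 ± 0.77, adjusted p = 0.0277), and Bub1, a spindle checkpoint kinase (2.70 ± 0.59, adjusted p = 0.0185). By the line fits, 20 rose in VQ-D5, 18 in VQ-D2, 15 in VQ-D1, 11 in VQ-D4 and 6 in t-VK12653, the last near the share of all genes in that line (28.8%).

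Histone and replication sums were not in 1 proportion across lines. Summed DNA replication genes stood at 2054 ± 123 CPM in t-VK12653 (SD, n = 4), against 1190.4 ± 390.1 CPM in controls (SD, n = 3), while summed histone members stood at 2222.5 ± 495 CPM and 2853 ± 1254 CPM. Histone sums of t-VK12653 and control libraries overlapped. In VQ-D4, replication genes were at 1206.5 ± 297 CPM and histone members at 3636 ± 863 CPM. VQ-D1, with replication genes at 2234 ± 268 CPM, had 4231 ± 535 CPM of histone members (SD, n = 4). The t-VK12653 and VQ-D1 ranges overlapped for replication genes (1954 to 2229 CPM and 1855.5 to 2470.0 CPM) and did not for histone members (1767 to 2712 CPM and 3586 to 4895 CPM).

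**Figure D5:**
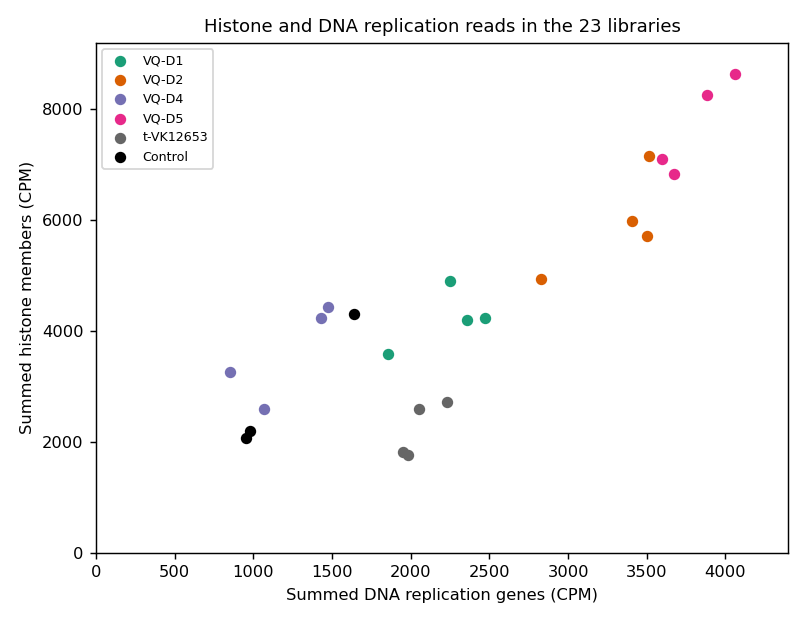
Summed CPM of the 63 histone members against summed CPM of the DNA replication list, 1 point per library. The 4 t-VK12653 libraries lay below the VQ-D1 libraries, at 1767 to 2712 CPM of histone members.

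Among genes for histone RNA transcription and 3′ end formation, 9 of 26 rose and 1 fell in VQ lines over control (median 0.58). Of all genes, 13.7% rose and 9.27% fell. Zfp473 and Lsm11, both of the U7 particle, rose by 2.62 ± 0.59 and 1.62 ± 0.36 (adjusted p = 0.0193 and 0.0192). Npat had a log2 fold change of 0.60 ± 0.21 (adjusted p = 0.0791). Slbp had 61.4 ± 5.95 CPM in VQ-D5, 50.4 ± 6.73 CPM in VQ-D2, 25.9 ± 4.17 CPM in VQ-D1, 18.8 ± 4.06 CPM in VQ-D4 and 34.6 ± 4.25 CPM in t-VK12653 (SD, n = 4 each), against 50.9 ± 16.8 CPM in controls (SD, n = 3). It fell in VQ-D1 by 1.099 ± 0.19, in VQ-D4 by 1.49 ± 0.21 and in t-VK12653 by 0.69 ± 0.19 on the log2 scale (adjusted p = 3.08e-05, 4.19e-06 and 0.00317), and in VQ-D2 and VQ-D5 it did not pass (adjusted p = 0.426 and 0.324).

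Of 23 histone chaperone and assembly genes, 8 rose and 0 fell in VQ lines (median 1.003, all genes 13.7% higher and 9.27% lower). Npm1, a nucleolar chaperone, rose by 2.65 ± 0.40 (adjusted p = 0.00622), the importin Ipo4 by 2.56 ± 0.22 (adjusted p = 0.00163) and Chaf1a, a subunit of the assembly factor CAF-1, by 1.92 ± 0.46 (adjusted p = 0.0236). Of 13 cell cycle inhibitor genes, 0 rose and 2 fell (median -0.65), beside the same 13.7% and 9.27% of all genes. Btg1 fell by 2.40 ± 0.68 and Rbl2 by 0.96 ± 0.20 on the log2 scale (adjusted p = 0.0424 and 0.0163).

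The list of replication-independent histone variants had 0 of 11 genes higher and 0 lower in VQ lines (edgeR, 3 at an unadjusted p under 0.05, median 0.32). Of all genes, 13.7% rose and 9.27% fell. H1f0, the linker variant of differentiated cells, had 329, 426, 547 and 659 CPM in VQ-D1 and 686, 1034, 1136 and 914 CPM in VQ-D4, against 149, 96.4 and 163 CPM in controls. Neither line overlapped the controls. Its log2 fold change was 2.68 ± 0.37 in VQ-D4 (adjusted p = 1.58e-05) and 1.73 ± 0.34 in VQ-D1 (adjusted p = 0.000369). Between lines, H1f0 was lower in VQ-D2 than in VQ-D4 and VQ-D5, with log2 differences of -2.71 ± 0.31 and -1.17 ± 0.31 (adjusted p = 1.75e-06 and 0.00637). It was thus not lowest in VQ-D5, the line with the highest average histone sum. H3f3b, which encodes the replacement histone H3, had 587 ± 209 CPM in VQ-D4 (SD, n = 4), against 290.5 ± 53.6 CPM in controls (SD, n = 3), and rose there by 1.096 ± 0.28 (adjusted p = 0.00362). In VQ-D2 it fell by 1.49 ± 0.30 (adjusted p = 0.00039). H2afz averaged 4.53 to 8.31 CPM over the lines and 4.65 CPM in controls, and H3f3a averaged 21.8 to 30.4 and 24.5 CPM. Words shared with other transcripts were not counted for these variants. Reads lost to similar copies could thus lower their levels here.

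Markers of other cells moved with the comparisons against control. Of all genes tested, 9.27% fell in VQ lines over control. There, 2 of 8 plasma cell markers (Cd38 and Slamf7) and 3 of 6 B cell markers tested fell. So did 12 of 12 neutrophil, 9 of 10 erythroid, 7 of 9 T and NK cell and 4 of 9 monocyte and macrophage markers. Their summed levels in tumour libraries were 4.32 to 1169, 67.6 to 456, 0.239 to 6.54 and 16.5 to 1469 CPM, against 3151 to 8724, 209 to 1082, 54.6 to 78.0 and 589 to 1912 CPM in controls. Their part in the histone differences from control was not tested.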

How the data were processed

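RNA-seq of sorted cells was deposited as 1 table per library. Per the file headers, each table gives a read count, an FPKM and a TPM for 24063 gene symbols, all made by the authors. The deposited counts are whole and unnormalized and were used for tests. The deposited TPM are scaled to length and were used to compare genes, and the deposited FPKM were not used. Libraries were made from total RNA with a stranded picogram-input kit, per the labels' protocols. The submitters' processing notes name STAR, featureCounts and DESeq2, with GRCm38 and mm10 as builds. The sources used here do not give the annotation, strand or multi-read settings.

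Tests used edgeR 4.0.16 (robust quasi-likelihood F-test, TMM, filterByExpr with count minimum 10 and total minimum 15, Benjamini-Hochberg adjustment over all genes tested) in R 4.3.3, called at an adjusted p under 0.05, with DESeq2 1.42.0 as an alternative. The procedure was tested on simulated data. VQ lines were compared with control on line sums (4 against 3). The spleen effect in VQ-D1 minus that in t-VK12653 used only the libraries of these lines, with a line-by-tissue term. The other main comparisons used the 23 libraries with group and tissue terms. Nothing says that the controls came from separate mice, so p-values measure the spread between libraries. Every pair of libraries in a group differed by more than sampling noise. Named genes were the 3 with the highest TPM per class, up to 4 highest and 4 lowest called members per comparison, germline and polyadenylating members, up to 4 called genes per list and fixed companions such as Slbp. The neighbours of single members, H1f0 and H2afj were named after their values were seen. The members and lists were chosen with earlier results of these data known.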

Additional observations from a re-analysis of the deposited data

Results flagged for a closer look

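Single libraries stood apart from the other 3 of their line in 11 of the group checks made on 39 named genes in 5 lines. The measure was the gap to the nearest library over the whole range (Dixon's 95% limit). Chance exceeds this limit in about 1 in 20 groups, so the number flagged was near that of chance. In VQ-D4, Hist1h1t was at 9.73 CPM in the liver library (replicate 2), and the spleen library (replicate 3) was high for Hist3h2ba (7.77 CPM), H3f3b (900.2 CPM) and Myc (1676 CPM). In t-VK12653, replicate 3 was high for Hist1h1t (1.35 CPM), H2afx (88.4 CPM) and Hist1h2ah (17.95 CPM). It was only slightly low for Hist1h2bm (12.9 CPM, against 13.89 to 13.96 CPM in the rest of the line). Replicate 4 of t-VK12653 was high for Hist3h2ba (9.86 CPM), and replicate 2 was low for Hist1h2ag (2.25 CPM). Slbp was high in VQ-D2 replicate 2 (60.5 CPM).

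Some members moved in opposite directions from control in 2 lines, and the direct test between those lines passed. For Hist3h2a the log2 difference was -6.70 in VQ-D1 over VQ-D2 and -6.77 in VQ-D1 over VQ-D5, and for Hist3h2bb-ps -6.36 and -6.03 in the same pairs. For Hist4h4 it was -3.57 in VQ-D1 over VQ-D5 and -6.54 in VQ-D4 over VQ-D5. For Hist1h1a it was -2.48 in VQ-D1 over VQ-D5. For Hist2h2be it was 2.68 in VQ-D1 over VQ-D2, 2.37 in VQ-D1 over VQ-D4, -2.76 in VQ-D2 over VQ-D5 and -2.45 in VQ-D4 over VQ-D5. For Hist1h4j it was 2.77 in VQ-D2 over VQ-D4 and -3.30 in VQ-D4 over VQ-D5, and for Hist1h2bm 2.502 and -2.91.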

How the results depend on the processing

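Counts of called members moved by over 1.5 times under these alternatives. For VQ lines over control, 10 members became 6 with RLE scaling, 5 without VQ-D2, 21 without VQ-D4, 4 without VQ-D5, 3 with bone marrow alone, 39 (38 higher, 1 lower) for the mean of lines in the fit of 23 libraries and 20 with DESeq2. Leaving out 1 library at a time gave 2 to 15 for VQ lines, 19 to 49 for VQ-D1, 12 to 32 for VQ-D4 and 9 to 24 for t-VK12653 over control, and 14 to 32 for VQ-D1 over VQ-D2. VQ-D4 over control went to 29 without the filter on low counts and to 29 with the replicate block. Without the filter, VQ-D1 over VQ-D2 had 38 and VQ-D2 over VQ-D5 had 30, spleen over bone marrow 7 and lymph node over bone marrow 1. With a recipient block, spleen over bone marrow had 1. Same-numbered libraries of different groups had correlations of -0.376 to 0.321 (median 0.0163, 55 pairs), so the numbers do not pair libraries. Of single-gene values, 3761 kept direction and side of the threshold, 197 lost and 19 gained a call, and 25 uncalled or near-zero values changed sign. In VQ lines over control, the mean of lines gave -0.15 for Hist3h2a and -0.19 for Hist2h2be, and Slbp ranged from -0.42 without control replicate 1 to 0.0077 without control replicate 2. H3f3a turned to -0.041 with RLE scaling, -0.037 with DESeq2, -0.040 without VQ-D2, -0.030 without VQ-D5, -0.17 with bone marrow alone and -0.16 with the mean of lines, and ranged from -0.039 to 0.28 without single libraries. H3f3b turned to -0.097 with RLE scaling or DESeq2, -0.047 without abundant non-coding RNA, -0.60 without VQ-D4, -0.036 without VQ-D5 and -0.33 with the mean of lines, and ranged from -0.10 to 0.17 without single libraries. The cause was not tested. Members under 1 CPM, such as the Hist2h3c copies, are limited by depth.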
